A study of Mus musculus with 27 samples.

Results

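The microRNAs of skeletal and heart muscle examined here were 4 mature names, mmu-miR-206-3p, mmu-miR-133b-3p, mmu-miR-1a-3p and mmu-miR-133a-3p. They were taken by name from the 1900 mature microRNA names that the deposited tables list, and they take up 6 of 2035 loci. All measurements came from undifferentiated mouse embryonic stem (ES) cells of strain cj7, grown in medium with fetal calf serum and leukemia inhibitory factor. The mutant cells carried the genotypes Eed-/-, Ezh2-/- or Jarid2-/-, and the cells they were set against were wild-type. The study asked what Polycomb repressive complex 2 (PRC2) does at the imprinted Gtl2-Rian-Mirg locus, and small RNA sequencing was 1 of its assays. The labels list 27 samples, of which 7 are small RNA: 2 each for Eed-/-, Ezh2-/- and wild-type cells and 1 for Jarid2-/- cells. The deposited microRNA counts form 1 column per genotype, and whether a column pools its samples is not given in the sources used here. Nor is it given how many clones stand behind a genotype. The 4 columns therefore have no replicate spread, no test across samples could be made, and every interval below is a 95% interval that covers counting error only. Reads made by PCR are not independent molecules, so these intervals are too narrow even for that.

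PRC2 is the enzyme complex that methylates lysine 27 of histone H3 and helps keep developmental genes silent in ES cells. EZH2 is its catalytic subunit, EED is a core subunit that the complex needs for its activity, and JARID2 is an accessory protein involved in recruiting PRC2 to chromatin. The muscle microRNAs are made from paired genes, each pair holding a miR-1 type and a miR-133 type hairpin. In differentiating muscle they are switched on by myogenic factors such as MyoD and SRF, and miR-1 and miR-133 are abundant in both heart and skeletal muscle. MiR-206 is largely restricted to skeletal muscle. ES cells are not muscle, and levels here were low in every genotype.

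The miR-206 and miR-133b pair is shown in full because miR-206-3p carries the largest difference among the 4 members and miR-133b-3p is its neighbour. The sequences are from RefSeq, build GRCm38.p6, where 2 of the 4 members matched, and both are the same as in the deposited tables. Capitals mark the seed, bases 2 to 8, which pairs with target messenger RNAs. The first 4 lines are the mature arms of the 2 hairpins.
miR-206-3p: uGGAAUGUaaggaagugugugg
miR-133b-3p: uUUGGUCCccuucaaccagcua
miR-206-5p: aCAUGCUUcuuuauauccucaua
miR-133b-5p: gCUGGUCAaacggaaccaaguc
The next 2 lines are the hairpins they are cut from, both on the plus strand of chromosome 1, with the mature arms in capitals. Mir206 lies at chr1:20679010-20679082 and Mir133b at chr1:20682769-20682887 in GRCm38.p6.
Mir206: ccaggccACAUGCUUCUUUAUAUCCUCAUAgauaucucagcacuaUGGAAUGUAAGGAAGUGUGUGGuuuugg
Mir133b: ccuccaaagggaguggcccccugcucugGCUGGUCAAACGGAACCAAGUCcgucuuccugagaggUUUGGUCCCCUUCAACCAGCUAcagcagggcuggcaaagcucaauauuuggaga
In the deposited tables, whose coordinates were read as mm9, miR-206-3p lies at chr1:20669136-20669157 and miR-133b-3p at chr1:20672915-20672936, both on the plus strand. Their starts are 3779 bp apart, and in GRCm38.p6 both hairpins lie within the long non-coding RNA gene Lincmd1. The other pair on chromosome 2 has miR-1a-3p at chr2:180123801-180123822 and miR-133a-3p at chr2:180133142-180133163 in mm9, 9341 bp apart on the plus strand, inside the host gene Mir1a-1hg.

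By seed, the 4 members fall into a miR-1 type and a miR-133 type. The deposited mature sequences of miR-1a-3p and miR-206-3p differ at 4 of 22 bases and share their seed. MiR-133a-3p and miR-133b-3p differ at 1 of 22 bases and also share a seed, so a short or miscalled read of either could be counted for the other. MiR-1a-3p and miR-133a-3p each have a second locus, whose counts differed from those of the first by at most 1 for miR-1a-3p and by 0 for miR-133a-3p. Reads of those 2 members therefore cannot be assigned to a copy, and the value of a name is that of its locus with the most counts.

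The columns summed to 42293019 microRNA counts in Eed-/- cells, 32074712 in Ezh2-/- cells, 8485806 in Jarid2-/- cells and 23793733 in wild-type cells. Levels are given as CPM, that is, counts scaled to a common total by dividing by that sum and multiplying by 1000000. A count of 3, the floor used where a column has none, equals 0.0709, 0.0935, 0.354 and 0.126 CPM in Eed-/-, Ezh2-/-, Jarid2-/- and wild-type cells, so low values are least certain in Jarid2-/- cells. The ES cell label held against its markers: the 5 listed ES cell microRNAs summed to 220049, 279435, 224351 and 207239 CPM in the same order. The 4 muscle members together reached 28.6, 5.46, 3.30 and 8.03 CPM in that order. In such bulk RNA, fewer cells of a type and less RNA per cell cannot be told apart.

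MiR-206-3p, the skeletal muscle member, was high in Eed-/- cells. It had 671 counts or 15.9 CPM (14.7 to 17.1) in Eed-/- cells, 71 counts or 2.21 CPM (1.73 to 2.79) in Ezh2-/- cells and 2 counts or 0.236 CPM (0.0285 to 0.851) in Jarid2-/- cells, against 18 counts or 0.757 CPM (0.448 to 1.20) in wild-type cells. The intervals of the 2 higher columns were clear of each other and of the wild-type column, while those of Jarid2-/- and wild-type cells overlapped. Its level was 21.0-fold higher in Eed-/- than in wild-type cells (13.2 to 35.6) and 2.93-fold higher in Ezh2-/- than in wild-type cells (1.73 to 5.22). In Jarid2-/- cells it was 3.21-fold lower than in wild-type cells, with an interval from 28.5-fold lower to 0.769 on the same scale, which includes no difference. Among all loci, ordered by count, miR-206-3p stood at rank 492 in Eed-/- cells, 582 in Ezh2-/- cells, 980 in Jarid2-/- cells and 850 in wild-type cells.

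MiR-133b-3p, which shares the Lincmd1 locus, had a much smaller range. It had 108 counts or 2.55 CPM (2.10 to 3.08) in Eed-/- cells, 12 counts or 0.374 CPM (0.193 to 0.654) in Ezh2-/- cells and 4 counts or 0.471 CPM (0.128 to 1.21) in Jarid2-/- cells, against 27 counts or 1.14 CPM (0.748 to 1.65) in wild-type cells. The Eed-/- column was the high one, and the Ezh2-/- column was low. Against wild-type cells it was 2.25-fold higher in Eed-/- cells (1.47 to 3.57), 3.03-fold lower in Ezh2-/- cells (1.49 to 6.57) and 2.41-fold lower in Jarid2-/- cells (0.839 to 9.47, which includes no difference).

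MiR-1a-3p, the heart and skeletal muscle microRNA with the seed of miR-206-3p, had 312 counts or 7.38 CPM (6.58 to 8.24) in Eed-/- cells, 75 counts or 2.34 CPM (1.84 to 2.93) in Ezh2-/- cells and 17 counts or 2.00 CPM (1.17 to 3.21) in Jarid2-/- cells, against 110 counts or 4.62 CPM (3.80 to 5.57) in wild-type cells. Eed-/- cells were above wild-type cells, and both other mutants were below. It was 1.60-fold higher in Eed-/- cells (1.28 to 2.00), 1.98-fold lower in Ezh2-/- cells (1.46 to 2.69) and 2.31-fold lower in Jarid2-/- cells (1.38 to 4.10) than in wild-type cells.

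MiR-133a-3p, the partner of miR-1a-3p, had 119 counts or 2.81 CPM (2.33 to 3.37) in Eed-/- cells, 17 counts or 0.530 CPM (0.309 to 0.849) in Ezh2-/- cells and 5 counts or 0.589 CPM (0.191 to 1.38) in Jarid2-/- cells, against 36 counts or 1.51 CPM (1.06 to 2.10) in wild-type cells. The order of the genotypes was that of miR-133b-3p. It was 1.86-fold higher in Eed-/- cells (1.27 to 2.78), 2.86-fold lower in Ezh2-/- cells (1.56 to 5.42) and 2.57-fold lower in Jarid2-/- cells (1.00 to 8.38) than in wild-type cells. At these counts, the Jarid2-/- interval of miR-133a-3p ends next to no difference.

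**Figure D1:**
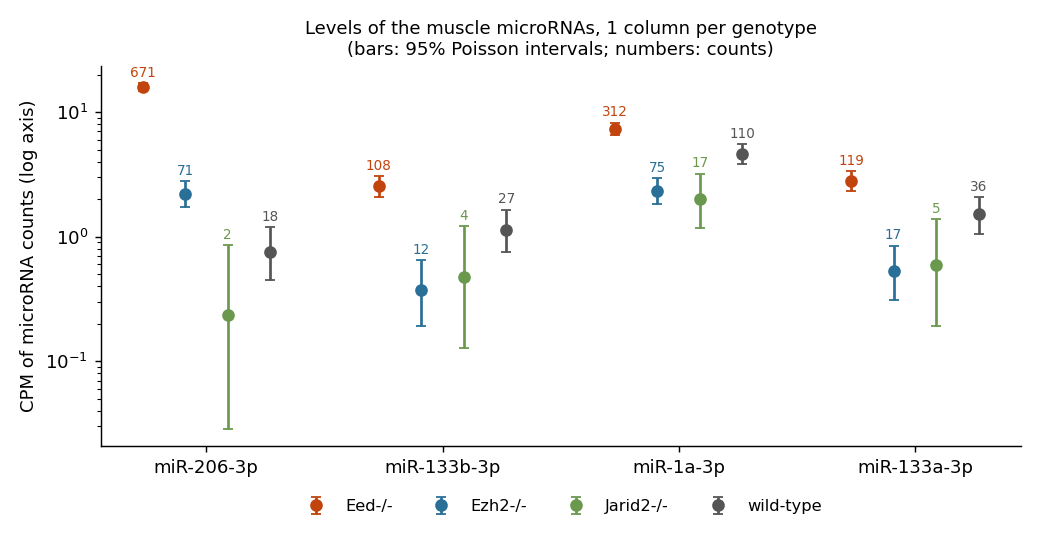
CPM (log axis) of the 4 muscle microRNAs in Eed-/-, Ezh2-/-, Jarid2-/- and wild-type cells, with exact Poisson 95% bars and the count printed at each point; there is 1 column per genotype. MiR-206-3p spans 0.236 to 15.9 CPM, the widest range of the 4, and Eed-/- cells are highest for each member.

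Within a genotype the order of the members also differed. In Eed-/- cells miR-206-3p was highest, miR-1a-3p came next, and the intervals of miR-133a-3p and miR-133b-3p overlapped. In Ezh2-/- cells miR-1a-3p at 2.34 CPM and miR-206-3p at 2.21 CPM had overlapping intervals, above miR-133a-3p and miR-133b-3p, which overlapped each other. In Jarid2-/- cells miR-1a-3p had the highest value, but its interval overlapped those of miR-133a-3p and miR-133b-3p, and the 3 others rested on 5, 4 and 2 counts. In wild-type cells miR-1a-3p was highest, at 4.62 CPM, and miR-133a-3p, miR-133b-3p and miR-206-3p had overlapping intervals at 1.51, 1.14 and 0.757 CPM.

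Differences in size were counted with 1 CPM added to both values, which understates folds of low microRNAs, and a locus was called at 2-fold or more if 1 of its 2 columns had at least 10 counts. In Eed-/- against wild-type cells, 1 of 4 members was called higher, miR-206-3p at a log2 ratio of 3.26, and 0 lower, where 17.5% of the 1096 loci considered were called higher and 15.0% lower. The ratios of miR-133b-3p, miR-133a-3p and miR-1a-3p were 0.73, 0.60 and 0.57. The members' median was 0.67, against 0.08 for all these loci with quartiles at -0.56 and 0.66. MiR-206-3p ranked 19 from the top of the 1096. With nothing added, 2 members passed 2-fold higher, miR-133b-3p being the second, where 26.9% of loci did. With the denominators of the authors' RPM values as scaling, all 4 were called higher.

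In Ezh2-/- against wild-type cells, 0 of 4 members were called higher and 0 lower, where 4.90% and 24.5% of the 1000 loci considered were. The call of miR-206-3p depended on the scaling: it was called higher with TMM, median-ratio and RPM scaling, at log2 ratios of 1.36, 1.23 and 1.06. Their log2 ratios were 0.87 for miR-206-3p, -0.64 for miR-133b-3p, -0.75 for miR-1a-3p and -0.72 for miR-133a-3p. The members' median was -0.68 and that of all these loci -0.44, with quartiles at -0.98 and 0.14. Relative to the median of all loci, with 1 CPM added, miR-206-3p stood at 1.31 and ranked 67 from the top of the 1000. MiR-133b-3p, miR-133a-3p and miR-1a-3p stood at -0.19, -0.27 and -0.31, and their ratios lay between the quartiles of all loci. With nothing added the ratios of those 3 were -1.60, -1.51 and -0.98. All these loci then had a median of -0.61 and a lower quartile of -1.57, and miR-133b-3p lay below that quartile. A call lower with 1 CPM added needs at least 1 CPM in the wild-type column. MiR-206-3p, at 0.757 CPM there, could therefore not be called lower. MiR-133b-3p, at 1.14 CPM there, could be called lower only if nearly absent from Ezh2-/- cells, so its 3.03-fold drop could not be called. The 0 called lower is thus partly fixed by the rule. With nothing added, 1 member passed 2-fold higher, where 9.80% of loci did, and 2 passed 2-fold lower, where 35.7% did.

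In Jarid2-/- against wild-type cells, 0 of 4 members were called higher and 0 lower, where 16.3% and 22.8% of the 950 loci considered were. Their log2 ratios were -0.51 for miR-206-3p, -0.54 for miR-133b-3p, -0.91 for miR-1a-3p and -0.66 for miR-133a-3p. Their median was -0.60 and that of all these loci -0.17, with quartiles at -0.90 and 0.64. Here too miR-206-3p, at 0.757 CPM in wild-type cells, could not be called lower with 1 CPM added. MiR-133b-3p, at 1.14 CPM in wild-type cells, could be called lower only if nearly absent from Jarid2-/- cells. With nothing added, all 4 passed 2-fold lower, where 29.6% of loci did, on 2 to 17 counts in Jarid2-/- cells. These 3 comparisons share the wild-type column, so their ratios are not independent of each other.

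**Figure D2:**
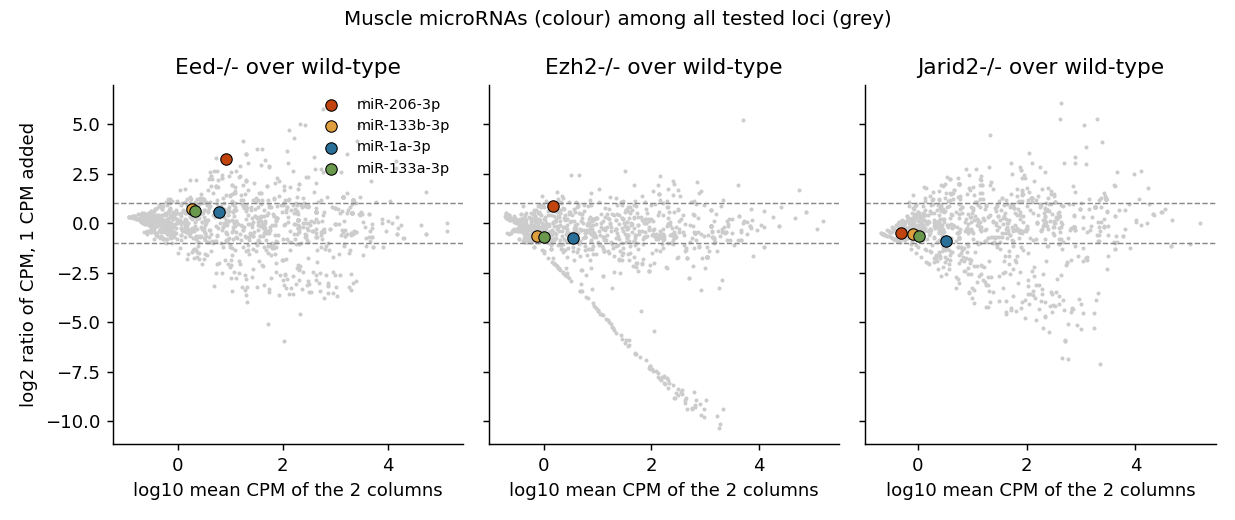
Log2 ratio against wild-type cells (1 CPM added) on the mean level of each locus, for Eed-/-, Ezh2-/- and Jarid2-/- cells; grey points are all loci considered, coloured points the muscle members, and dashed lines mark 2-fold. MiR-206-3p at 3.26 in Eed-/- cells is the only member outside the dashed lines.

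Set against each other, Eed-/- cells stood above both other mutants for every member. Between Eed-/- and Ezh2-/- cells the levels were 7.17-fold higher in Eed-/- cells for miR-206-3p (5.61 to 9.29), 6.83-fold for miR-133b-3p (3.75 to 13.6), 5.31-fold for miR-133a-3p (3.18 to 9.42) and 3.16-fold for miR-1a-3p (2.45 to 4.12). All 4 were called higher, where 35.7% of loci were. With TMM scaling only miR-206-3p was called, and the 4 folds were 3.96 for miR-206-3p, 3.78 for miR-133b-3p, 2.94 for miR-133a-3p and 1.75 for miR-1a-3p, with intervals still above no difference. With median ratios miR-206-3p and miR-133b-3p were called. In Jarid2-/- cells against Eed-/- cells, miR-206-3p was 67.3-fold lower (18.6 to 557), miR-133b-3p 5.42-fold lower (2.06 to 20.2), miR-133a-3p 4.78-fold lower (1.99 to 15.0) and miR-1a-3p 3.68-fold lower (2.26 to 6.40). All 4 were called lower, where 18.9% of loci were. In Jarid2-/- against Ezh2-/- cells, miR-206-3p was 9.39-fold lower (2.51 to 79.1) and was the only one called lower, where 8.92% of loci were. For the other 3 members the Jarid2-/- over Ezh2-/- ratio was 1.26 for miR-133b-3p (0.296 to 4.16), 1.11 for miR-133a-3p (0.321 to 3.14) and 0.857 for miR-1a-3p (0.474 to 1.47), all with intervals that include no difference. MiR-133a-3p and miR-133b-3p, at 0.530 and 0.374 CPM in Ezh2-/- cells, could not be called lower in this comparison with 1 CPM added.

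Shares within a column do not depend on how columns are scaled. Of the reads of the Lincmd1 pair, miR-206-3p made up 86.1% in Eed-/- cells (83.5 to 88.5, 671 of 779), 85.5% in Ezh2-/- cells (76.1 to 92.3, 71 of 83) and 33.3% in Jarid2-/- cells (4.33 to 77.7, 2 of 6), against 40.0% in wild-type cells (25.7 to 55.7, 18 of 45). The Eed-/- and Ezh2-/- intervals overlapped each other and both were clear of the wild-type interval. Jarid2-/- cells had too few reads to be told from any of the others except Eed-/- cells. Reads counted here for miR-133b-3p may include some of miR-133a-3p, which differs from it at 1 of 22 bases and comes from other loci. How many do was not tested.

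Of the reads of the 2 members with the miR-1 seed, miR-206-3p made up 68.3% in Eed-/- cells (65.3 to 71.2), 48.6% in Ezh2-/- cells (40.3 to 57.0) and 10.5% in Jarid2-/- cells (1.30 to 33.1), against 14.1% in wild-type cells (8.55 to 21.3). MiR-1a-3p was 72.4% (67.9 to 76.6), 81.5% (72.1 to 88.9), 77.3% (54.6 to 92.2) and 75.3% (67.5 to 82.1) of its reads plus those of miR-133a-3p in Eed-/-, Ezh2-/-, Jarid2-/- and wild-type cells. MiR-133b-3p was 47.6%, 41.4%, 44.4% and 42.9% of its reads plus those of miR-133a-3p in the same order. For both of these shares the 4 intervals overlapped.

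**Figure D3:**
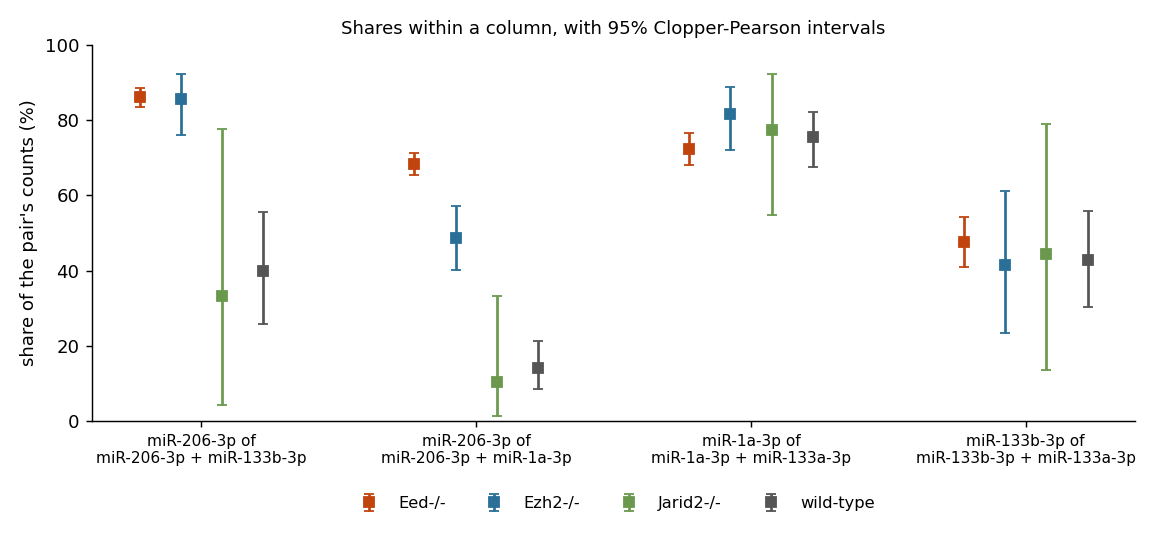
Share in percent of the first named microRNA in the reads of each pair, in Eed-/-, Ezh2-/-, Jarid2-/- and wild-type cells, with Clopper-Pearson 95% bars. MiR-206-3p is 86.1% and 85.5% of the Lincmd1 pair in Eed-/- and Ezh2-/- cells and 40.0% in wild-type cells, while the shares without miR-206-3p have overlapping bars. Reads counted for miR-133b-3p may include some of miR-133a-3p.

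Summed by seed, the miR-1 type had 23.2 CPM in Eed-/- cells, 4.55 in Ezh2-/- cells and 2.24 in Jarid2-/- cells, against 5.38 CPM in wild-type cells. That is 4.32-fold higher in Eed-/- cells (3.59 to 5.24), a ratio of 0.846 in Ezh2-/- cells (0.663 to 1.08) and 2.40-fold lower in Jarid2-/- cells (1.48 to 4.12). The Ezh2-/- sum could not be told from wild-type at this depth, its 2 parts lay on opposite sides, and its ratio turned to as much as 1.40 under the other scalings. Of the 5 names in the tables with this seed, miR-1957b, miR-6349 and miR-6382 had 0 counts in all columns. The miR-133 type, counting also miR-133c with 2, 2, 0 and 4 counts, had 5.42, 0.967 and 1.06 CPM in Eed-/-, Ezh2-/- and Jarid2-/- cells, against 2.82 CPM in wild-type cells. Its folds against wild-type cells were 1.92-fold higher (1.46 to 2.56), 2.91-fold lower (1.88 to 4.62) and 2.66-fold lower (1.32 to 6.06) in that order.

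The passenger arms, made from the other side of the same hairpins, were rare. MiR-206-5p had 13 counts in Eed-/- cells, 6 in Ezh2-/- cells, 0 in Jarid2-/- cells and 0 in wild-type cells. With the wild-type column set to the floor of 3 counts, the ratio of miR-206-5p to wild-type was 2.44 in Eed-/- cells and 1.48 in Ezh2-/- cells. These ratios leave out counting error and are not lower limits. The interval of miR-206-5p in wild-type cells was 0 to 0.155 CPM. That of Eed-/- cells, 0.164 to 0.526 CPM, was clear of it, and that of Ezh2-/- cells, 0.0687 to 0.407 CPM, overlapped it. MiR-206-3p was 98.1% and 92.2% of the reads of both arms in Eed-/- and Ezh2-/- cells. MiR-133b-5p had 1 count in Eed-/- cells and 0 elsewhere.

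The 5p arms of the miR-1a hairpins differ at 2 of 23 bases, so unlike the 3p arm they tell the copies apart. MiR-1a-1-5p, from the chromosome 2 copy, had 25 counts in Eed-/- cells, 6 in Ezh2-/- cells and 1 in Jarid2-/- cells, against 1 in wild-type cells. Its fold in Eed-/- over wild-type cells was 14.1 with an interval from 2.30 to 578, as wide as a single wild-type count makes it. MiR-1a-2-5p, from the second copy, had 0 counts in all 4 columns. MiR-133a-5p had 13, 4, 3 and 5 counts in Eed-/-, Ezh2-/-, Jarid2-/- and wild-type cells.

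MiR-1b is listed on the opposite strand of that second copy. Its 3p arm had 18, 25, 10 and 16 counts and its 5p arm 19, 13, 2 and 4 counts in Eed-/-, Ezh2-/-, Jarid2-/- and wild-type cells. Whether the counting used strand is not given in the sources used here, but the overlapping loci of the 2 strands had different counts. MiR-1a-3p of that copy, which lies opposite the 5p arm, had 312, 75, 17 and 110 counts in the same order. MiR-1a-2-5p, which lies opposite the 3p arm, had 0 in all columns. Reads of the 2 strands were therefore not pooled there. Of the 8 names of passenger arms and relatives, 5 had at least 10 counts in some column, but nearly all their levels were under 1 CPM, where the call with 1 CPM added cannot be reached, so no count of calls is given for them.

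Among other microRNAs of striated muscle, miR-499, which lies in an intron of the myosin gene Myh7b, did not follow miR-206-3p. It is shown with its seed, from RefSeq, GRCm38.p6, chromosome 2, beside the heart microRNA miR-208a of chromosome 14, because their seeds are nearly alike and their levels were not.
miR-499-5p: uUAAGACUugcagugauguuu
miR-208a-3p: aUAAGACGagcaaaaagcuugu
MiR-499-5p had 138 counts or 3.26 CPM in Eed-/- cells, 119 counts or 3.71 CPM in Ezh2-/- cells and 5 counts or 0.589 CPM in Jarid2-/- cells, against 167 counts or 7.02 CPM in wild-type cells. It was highest in wild-type cells and lowest in Jarid2-/- cells. The ratios to wild-type cells were 0.465 (0.368 to 0.586) in Eed-/- cells, 0.529 (0.414 to 0.673) in Ezh2-/- cells and 0.0840 (0.0269 to 0.200) in Jarid2-/- cells. Its other arm miR-499-3p had 122, 155, 14 and 150 counts in Eed-/-, Ezh2-/-, Jarid2-/- and wild-type cells, a ratio to wild-type of 0.262 (0.140 to 0.453) in Jarid2-/- cells.

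Of 12 listed striated muscle names other than the members, 8 were in the tables and 4 had at least 10 counts in some column. None of these 4 was called higher in any mutant against wild-type cells. In Jarid2-/- cells 2 were called lower, the arms of miR-499 at log2 ratios of -2.34 and -1.46, and both were called under all 5 scalings tried. Over all loci 22.8% were called lower there. In Ezh2-/- cells 1 was called lower, miR-486-5p at -1.05, but under 2 of the 5 scalings, and 1 of 4 is about the 24.5% of all loci called lower in that comparison. In Eed-/- cells 0 were called lower, where 15.0% of all loci were, and each arm of miR-499 was called under 1 of the 5. MiR-486-3p, at 0.7145 CPM in wild-type cells, could not be called lower with 1 CPM added. With nothing added all 4 passed 2-fold lower in Eed-/- cells, where 21.2% of loci did. The ratios were 0.465 for miR-499-5p, 0.458 for miR-499-3p, 0.458 for miR-486-5p and 0.331 for miR-486-3p, with intervals below no difference. Under the 5 scalings these ratios reached up to 0.762. MiR-486-5p, which comes from the muscle gene Ank1 and is also made in red blood cells, had 57, 29 and 16 counts in Eed-/-, Ezh2-/- and Jarid2-/- cells, against 70 in wild-type cells. The heart microRNA miR-208a-3p had 1, 0, 0 and 0 counts and miR-208b-3p 2, 0, 0 and 0 counts in Eed-/-, Ezh2-/-, Jarid2-/- and wild-type cells.

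**Figure D4:**
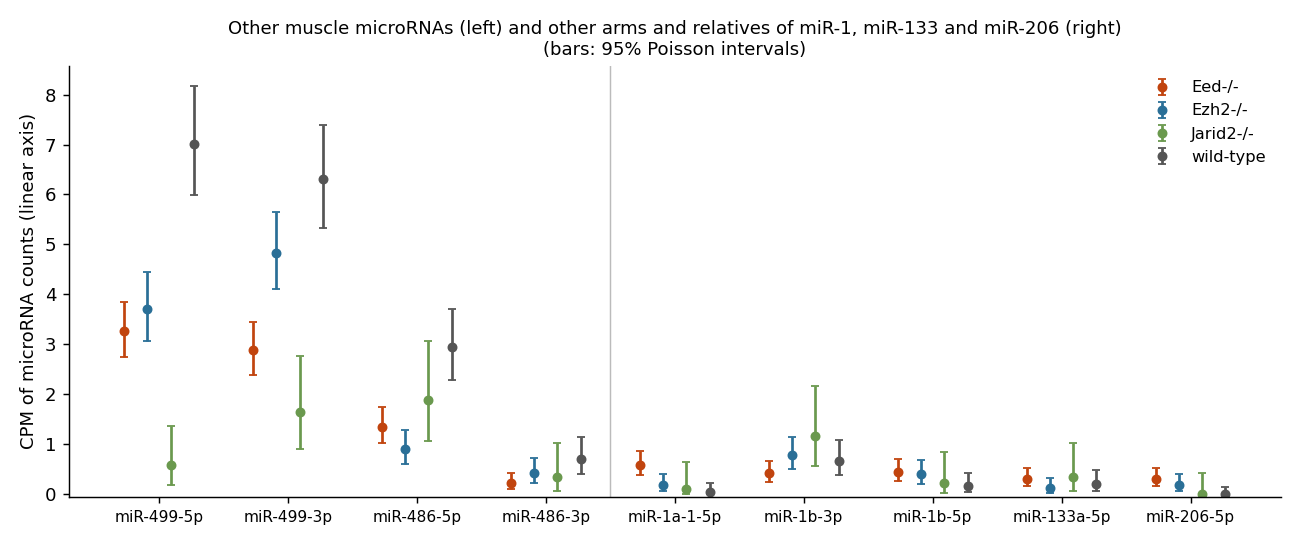
CPM (linear axis) of other striated muscle microRNAs, on the left, and of passenger arms and relatives of the members, on the right, in Eed-/-, Ezh2-/-, Jarid2-/- and wild-type cells, with exact Poisson 95% bars. MiR-499-5p is 7.02 CPM in wild-type cells and 0.589 CPM in Jarid2-/- cells.

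Markers of other cell types did not share 1 direction. The 4 smooth muscle and mesenchyme microRNAs (miR-143-3p, miR-145a-5p, miR-199a-3p and miR-214-3p) summed to 509.3, 532.8 and 643.7 CPM in Eed-/-, Ezh2-/- and Jarid2-/- cells, against 1419 CPM in wild-type cells, and none was at 0. Most of that sum was miR-145a-5p. Each of the 4 was lower in Eed-/- and Ezh2-/- cells than in wild-type cells. In Jarid2-/- cells miR-199a-3p was at 157 CPM, against 155.5 CPM in wild-type cells. The others were lower there, miR-143-3p at 5.54 against 178.8 CPM, miR-145a-5p at 480.8 against 1079 CPM and miR-214-3p at 0.354 against 5.38 CPM. The 2 neural microRNAs summed to 1031, 1599 and 18.0 CPM, against 1017 CPM in wild-type cells. Nearly all of that sum was miR-124-3p, with 993 CPM in Eed-/- cells, 1599 in Ezh2-/- cells and 15.7 in Jarid2-/- cells, against 1014 CPM in wild-type cells. The other, miR-9-5p, had 38.0 CPM in Eed-/- cells, 0.374 in Ezh2-/- cells and 2.36 in Jarid2-/- cells, against 2.44 CPM in wild-type cells. Of the 2 neural names, miR-9-5p but not miR-124-3p was thus high in Eed-/- cells like miR-206-3p. Among the ES cell names, miR-292-3p and miR-302a-3p were 2.995-fold and 2.908-fold higher in Eed-/- than in wild-type cells. MiR-294-3p, miR-295-3p and miR-291a-3p were lower there. The endoderm microRNA miR-375-3p had 8.94, 2.81 and 1.06 CPM, against 4.54 CPM in wild-type cells. The 3 blood microRNAs summed to 22.3, 174.5 and 65.5 CPM, against 256.5 CPM in wild-type cells. Most of the wild-type sum was miR-142-5p, with 2.44, 133.9 and 39.2 CPM in the mutants, against 212.5 CPM. MiR-451a had 19.7, 40.5 and 26.2 CPM, against 43.9 CPM, and its Ezh2-/- ratio of 0.922 (0.8495 to 1.002) included no difference. MiR-223-3p had 7, 2 and 1 counts, against 4 in wild-type cells. The liver microRNA miR-122-5p had 0.615, 0.156 and 0 CPM, against 0.252 CPM in wild-type cells. The part of these other cell types in the levels of the muscle members was not tested.

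Likeness was measured as the Euclidean distance over the 3 log2 ratios against wild-type cells, with 1 CPM added. It was taken among 640 other names with at least 100 counts in some column. MiR-206-3p, miR-133a-3p and miR-133b-3p reached 100 counts only in Eed-/- cells. The names nearest to miR-206-3p were miR-196b-3p at 0.511, from a Hox gene cluster, miR-324-3p at 1.04 and miR-351-3p at 1.24. MiR-196b-3p had 442, 19, 0 and 4 counts in Eed-/-, Ezh2-/-, Jarid2-/- and wild-type cells. The other members were not among its nearest names, with distances of 2.94 for miR-133b-3p, 3.10 for miR-133a-3p and 3.17 for miR-1a-3p. Few names lay close to miR-206-3p, and these distances ranked 107, 144 and 157 from the nearest of the 640 names.

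By contrast, miR-133a-3p and miR-133b-3p were each other's nearest name, at 0.199. Next to miR-133a-3p came miR-5121 at 0.209 and miR-743a-3p at 0.233. Next to miR-133b-3p came miR-6236 at 0.288 and miR-5121 at 0.319. MiR-1a-3p was nearest to miR-5121 at 0.246, then miR-133a-3p at 0.248 and miR-743a-3p at 0.261. These distances depend on the 1 CPM added, which pulls the ratios of low names toward no difference. For miR-133a-3p the ratios with it were 0.60, -0.72 and -0.66 in Eed-/-, Ezh2-/- and Jarid2-/- cells. With nothing added they were 0.895, -1.51 and -1.36. Those of miR-5121 rest on 710 to 8810 counts, where the addition changes little. Reads of miR-133a-3p and miR-133b-3p may also be counted for each other. With 3 ratios that share the wild-type column, these distances describe the columns and carry no test.

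Scaling moved the folds but changed few directions. Under 5 scalings of the columns, miR-206-3p was 18.0-fold to 34.4-fold higher in Eed-/- than in wild-type cells and 2.93-fold to 4.85-fold higher in Ezh2-/- than in wild-type cells. The other 3 members kept their side of wild-type under all 5, from 1.37-fold to 3.69-fold higher in Eed-/- cells and from 1.19-fold to 3.03-fold lower in Ezh2-/- cells. In Jarid2-/- against wild-type cells the 4 members were 1.64-fold to 3.57-fold lower. The only members to change side were miR-133a-3p and miR-133b-3p in Jarid2-/- over Ezh2-/- cells, with ratios of 0.658 to 1.15 and 0.746 to 1.31.

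**Figure D5:**
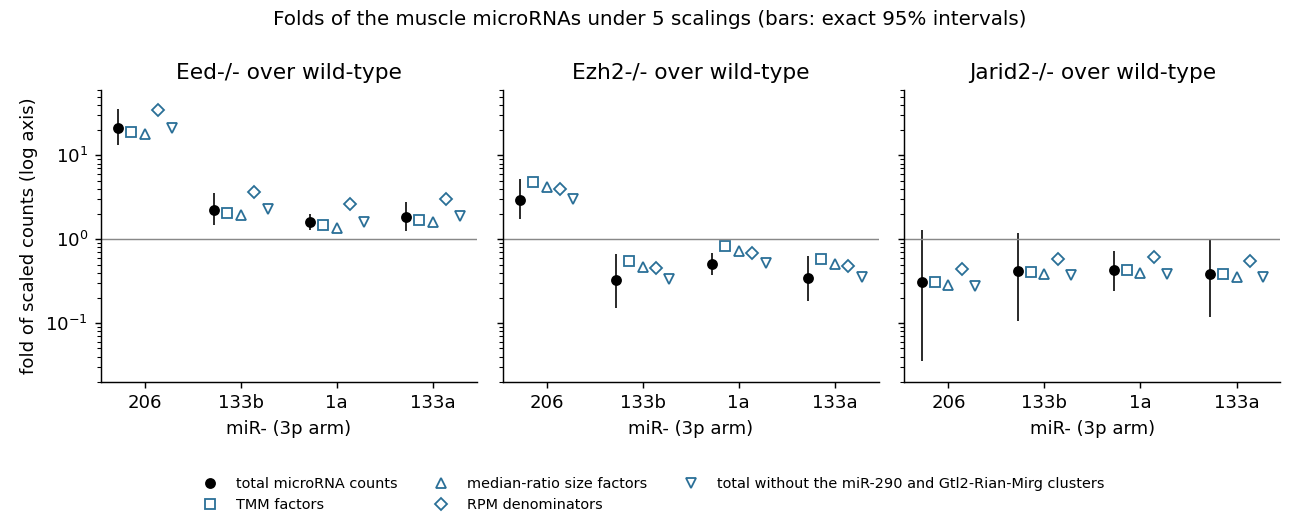
Folds of the 4 members against wild-type cells (log axis) under 5 scalings, for Eed-/-, Ezh2-/- and Jarid2-/- cells; the black point is scaling by the microRNA total, with its exact 95% interval. MiR-206-3p stays between 18.0-fold and 34.4-fold higher in Eed-/- cells, and under these scalings no member's fold crosses 1 against wild-type cells.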

How the data were processed

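Small RNA of 18 to 40 nt was gel-selected, made into SOLiD libraries and sequenced, per the labels' protocols. Cutadapt, Bowtie and the build mm9 are listed, per the submitters' processing notes. How reads that match several loci were treated is, like the versions and settings, not given in the sources used here. Each deposited table holds, per the file headers, a read count per mature locus of miRBase release 20 and the same value as RPM, which the authors divided by a wider total: 267248746 for Eed-/-, 243895676 for Ezh2-/-, 62259756 for Jarid2-/- and 246316316 for wild-type cells. Columns were assigned by name; the wild-type one names only the parental line. The columns of unassigned samples number 0.

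From the deposited counts, CPM of the column's microRNA total was computed, with exact Poisson intervals, exact conditional binomial intervals for folds and Clopper-Pearson intervals for shares (scipy 1.17.1, pandas 2.3.3, numpy 2.4.6, Python 3.11.15; figures with matplotlib 3.10.9). TMM factors came from edgeR 4.0.16 and median-ratio size factors from DESeq2 1.42.0 in R 4.3.3. The planned quasi-likelihood test of edgeR needs replicates and was not run, because a genotype has 1 column; ratios are given with no test. The calls were checked on simulated Poisson counts, changed only at loci with an expected count of at least 100. MiR-206-3p, miR-133b-3p and miR-133a-3p, with 18, 27 and 36 wild-type counts, lie below that, so the check does not cover their calls. It also held no PCR or replicate spread. The fold intervals were checked at lower simulated counts as well. Alternatives were the other scalings (TMM, median ratio, RPM denominators, totals without large clusters), 0.1 or 10 CPM added, minimum counts of 1 or 100, a 4-fold call and a sum over loci. Adding nothing was chosen after seeing the data.

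Named were the 4 members, their arms and relatives and other striated muscle microRNAs with at least 10 counts in 1 column, listed markers of ES and other cell types, and for each member the 3 names nearest in their ratios. MiR-208a-3p, miR-208b-3p, miR-133b-5p, miR-133c, miR-1a-2-5p and 3 names with the miR-1 seed have under 10 counts in every column; they fall outside this rule and were added after their values were seen. The members and lists were chosen with earlier results of these data known. The chromatin and messenger RNA samples were not analysed here.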

Additional observations from a re-analysis of the deposited data

Results flagged for a closer look

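For 3 members the ratios to wild-type cells had opposite signs in different mutants, with counting intervals on opposite sides of no difference. The difference itself was not tested, since each genotype has 1 column, and the ratios compared share the wild-type column. For miR-1a-3p the log2 ratio was 0.57 in Eed-/- cells and -0.75 in Ezh2-/- cells, a difference of 1.33, and -0.91 in Jarid2-/- cells, a difference of 1.48. For miR-133a-3p it was 0.60 in Eed-/- cells and -0.72 in Ezh2-/- cells, a difference of 1.32, and -0.66 in Jarid2-/- cells, a difference of 1.26. For miR-133b-3p it was 0.73 in Eed-/- cells and -0.64 in Ezh2-/- cells, a difference of 1.37. These intervals hold for scaling by the microRNA total. With TMM the Ezh2-/- over wild-type intervals came to include no difference, at 0.616 to 1.13 for miR-1a-3p, 0.306 to 1.06 for miR-133a-3p and 0.252 to 1.11 for miR-133b-3p. With the RPM denominators the Jarid2-/- over wild-type intervals did, at 0.344 to 1.02 for miR-1a-3p and 0.168 to 1.40 for miR-133a-3p.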

How the results depend on the processing

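No paired analysis was possible because each genotype has a single column; for the same reason no replicate could be left out. The settings below moved counts of members, of 4, called at 2-fold. In Eed-/- against wild-type cells the count called higher was 1, and 2 with 0.1 CPM or nothing added and 4 with the RPM denominators. In Ezh2-/- against wild-type cells the count higher was 0, and 1 with 0.1 CPM or nothing added and with TMM, median-ratio or RPM scaling; the count lower was 0, and 2 with 0.1 CPM or nothing added. In Jarid2-/- against wild-type cells the count lower was 0, and 4 with 0.1 CPM or nothing added and 1 with the sum over loci or totals without the miR-290 and Gtl2-Rian-Mirg clusters. For Eed-/- over Ezh2-/- cells the count higher was 4, and 1 at 4-fold, with 10 CPM added or with TMM, and 2 with median-ratio scaling. There the fold of miR-206-3p was 7.17, and 3.96 with TMM and 4.29 with median ratios; that of miR-133b-3p was 6.83, and 3.78 and 4.09, that of miR-133a-3p 5.31, and 2.94 and 3.18, and that of miR-1a-3p 3.16, and 1.75 and 1.89. For Jarid2-/- over Eed-/- cells the count lower was 4, and 1 at 4-fold or with 10 CPM added. For Jarid2-/- over Ezh2-/- cells it was 1, and 0 with at least 100 counts, at 4-fold or with 10 CPM added. No called result changed sign under these settings, and the cause of the moves with scaling was not tested.

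The scalings also moved all loci, by a median log2 ratio in Ezh2-/- against wild-type cells of -0.44, and 0.09 with TMM, with 49 loci called higher and 245 lower against 144 and 163 (110 and 189 with median ratios, 93 and 185 with the RPM denominators). In Eed-/- against wild-type cells 192 were called higher and 164 lower, against 350 and 106 with the RPM denominators, where the median was 0.46 in place of 0.08, and 130 and 194 with median ratios. In Jarid2-/- against wild-type cells 155 were higher and 217 lower, against 253 and 176 with the RPM denominators, where the median was 0.21 in place of -0.17. In Eed-/- over Ezh2-/- cells 390 were higher and 50 lower, against 240 and 188 with TMM and 272 and 160 with median ratios, and in Jarid2-/- over Ezh2-/- cells 307 and 83, against 219 and 201 and 231 and 180. With that median subtracted, the log2 ratio of miR-206-3p under the 5 scalings stayed between 3.06 and 3.25 in Eed-/- cells and between 1.18 and 1.32 in Ezh2-/- cells. Depth limits Jarid2-/- cells most, where 3 members rest on 2 to 5 counts.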
